A study of Mus musculus with 3 samples.

Results

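The genes described here encode the proteins of the mitochondrial ribosome. They were taken as every row of the deposited expression table whose symbol begins with Mrpl or Mrps followed by a number, which gave 78 of 12852 rows. Of these, 48 carried a large subunit name (Mrpl) and 30 a small subunit name (Mrps), and 2 are annotated as processed pseudogenes. RNA sequencing had been done on B16F10 cells, a pigmented mouse melanoma line, with 1 library from wild type cells treated with a control siRNA (siCtrl) and 2 libraries from cells with Med23 knocked down (Med23 knockdown-1 and Med23 knockdown-2). The labels do not say if the pair of knockdown libraries are separate cultures or used different siRNAs, so p-values measure only the spread between these libraries, which may be technical. Med23 encodes a subunit of Mediator, which links DNA-bound transcription factors to RNA polymerase II. The values were RPKM, reads scaled to transcript length and to library size, which compare genes per unit of length.

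Mitochondrial ribosomes translate the few messages of the mitochondrial genome, which encode core subunits of the respiratory chain and ATP synthase. Their RNA comes from mitochondrial DNA, but their proteins are encoded in the nucleus, made in the cytosol and imported. The small subunit holds the messenger RNA and reads its codons. The large subunit joins the amino acids and passes the new chain out through a tunnel, at whose exit Oxa1l inserts it into the inner membrane. Many of the proteins have bacterial counterparts, while others are found only in mitochondria.

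Promoter sequence was available from RefSeq (GRCm38.p6) for 67 of the 78 genes, as 250 bases before to 50 after the start of transcription. It was searched on both strands for 5 short words: CCGGAAG, a word of ETS factors such as Gabpa, GCGCA and GCGC set apart by any 1 base, the word of nuclear respiratory factor Nrf1, AAGATGGC, the word of Yy1, and the general promoter words CCAAT and TATAAA. Gabpa, Nrf1 and Yy1 are known regulators of nuclear genes for mitochondria. CCGGAAG occurred in 24 of the 67 promoters (35.8%), against 19.7% of the 8952 table genes with a promoter and 9.93% of all 27025 genes with one. Among 59 promoters of cytosolic ribosomal protein genes its share was 37.3%. AAGATGGC occurred in 12 (17.9%), against 5.06% and 3.19%. The Nrf1 word occurred in 12 (17.9%), against 11.4% and 5.19%. In the cytosolic set these words had shares of 10.2% and 8.47%. CCAAT occurred in 27 (40.3%), against 43.4% and 41.1%, and TATAAA in 5 (7.46%), against 8.50% and 15.7%. Shown next are the 100 bases just before the start for the 4 genes with the largest rises and the 4 with the largest falls, by log2 ratio, among those with a match to the ETS or Nrf1 word in that stretch, so that promoters of genes that moved in opposite directions can be read side by side. Matches to the ETS and Nrf1 words on either strand are in capitals, so the ETS word also appears as its reverse complement CTTCCGG, and each sequence reads 5′ to 3′ on the strand of its gene. The 4 rises come first.
Mrpl32, chr13:14613038-14613137, minus strand: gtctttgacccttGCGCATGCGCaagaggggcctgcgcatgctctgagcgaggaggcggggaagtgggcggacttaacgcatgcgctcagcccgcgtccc
Mrpl9, chr3:94443236-94443335, plus strand: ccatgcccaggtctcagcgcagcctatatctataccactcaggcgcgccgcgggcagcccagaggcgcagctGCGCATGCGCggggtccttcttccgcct
Mrpl30, chr1:37890377-37890476, plus strand: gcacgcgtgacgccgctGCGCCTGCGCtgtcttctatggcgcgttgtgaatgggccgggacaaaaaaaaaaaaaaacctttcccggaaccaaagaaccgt
Mrpl27, chr11:94653691-94653790, plus strand: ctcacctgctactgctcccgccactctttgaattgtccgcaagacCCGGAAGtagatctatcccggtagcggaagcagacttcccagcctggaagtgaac
Mrps27, chr13:99344686-99344785, plus strand: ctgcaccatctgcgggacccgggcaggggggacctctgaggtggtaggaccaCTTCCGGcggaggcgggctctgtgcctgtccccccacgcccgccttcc
Mrpl3, chr9:105053168-105053267, plus strand: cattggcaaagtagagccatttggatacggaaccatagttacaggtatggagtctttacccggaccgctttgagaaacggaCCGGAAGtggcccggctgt
Mrpl51, chr6:125192100-125192199, plus strand: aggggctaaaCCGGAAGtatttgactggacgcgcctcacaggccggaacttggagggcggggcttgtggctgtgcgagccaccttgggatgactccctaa
Mrpl12, chr11:120484537-120484636, plus strand: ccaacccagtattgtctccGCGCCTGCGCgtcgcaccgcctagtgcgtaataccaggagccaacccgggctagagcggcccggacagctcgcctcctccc
The genes shown were chosen for holding a match, so nothing is read from how the words are split between rises and falls. The Nrf1 word lies before Mrpl32, Mrpl9 and Mrpl30 among the rises and before Mrpl12 among the falls. The ETS word lies before Mrpl27 among the rises and before Mrps27, Mrpl3 and Mrpl51 among the falls. These are matches of letters, not sites shown to be bound.

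The target gene of the knockdown, Med23, was at 5.23 RPKM in the control library and at 1.65 and 1.61 RPKM in the knockdown libraries, with log2 ratio -1.24 ± 0.11 (SE; adjusted p = 0.00121 by limma). When the control was given an SD 3 times that of a knockdown library its adjusted p was 0.108. The melanocyte markers Tyr, Tyrp1, Dct, Pmel, Mlana, Mitf and Sox10 were all present in the control, the lowest being Mitf at 9.003 RPKM, and all 7 fell, from a summed level of 6923 RPKM to 2977 and 2868 RPKM. Of 12 markers of leukocytes, epithelium, endothelium and fibroblasts, 3 had a row in the table (Cd68, Lyz2 and Col1a1), which summed to 17.7 RPKM in the control library and to 11.4 and 11.6 RPKM after knockdown. The sum followed Cd68 (16.9, 10.0 and 10.1 RPKM), which fell. Lyz2 (0.646, 1.19 and 1.18 RPKM) and Col1a1 (0.189, 0.200 and 0.405 RPKM) were above the control in both knockdown libraries. Col1a1 was under the filter of a mean of 1 RPKM. Lyz2 passed that filter through the knockdown libraries alone, so nothing is read from its call. The part of these shifts in the results that follow was not tested. The libraries had been given nearly the same distribution of values before deposit, so depth was unknown, each level is relative to the other genes of its library, and fewer cells of a type and less RNA per cell cannot be told apart.

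Of the 78 genes, 77 had a mean of at least 1 RPKM and were tested with limma on log2(RPKM + 1), in a fit over all 9722 genes that passed this filter. After knockdown 34 rose (44.2%), 5 fell (6.49%) and 38 did not pass at a Benjamini-Hochberg adjusted p of 0.05. Among all tested genes 26.3% rose and 24.0% fell. The genes that rose did so by 1.23-fold to 2.18-fold in mean RPKM, and those that fell did so by 1.23-fold to 1.37-fold. The median log2 ratio of the 77 was 0.25, with quartiles of 0.04 and 0.53, beside a median of 0.01 over all tested genes. Both knockdown libraries lay above the lone control for 59 of the 77 and below it for 14, while 4 had the control between them. Over all tested genes the shares were 46.6% above and 44.2% below. A rise of at least 1.5-fold in both libraries was seen for 17 of the 77, against 14.6% of all genes, and a fall of that size for 0, against 13.5%. A rise of at least 2-fold in both was seen for 3 (Mrpl32, Mrpl21 and Mrpl23-ps1), against 4.97% of all genes, and a fall for 0, against 4.76%. A rise of at least 25% in both was reached by 32 genes, against 26.7%, and the inverse of that ratio by 4, against 24.4%.

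These p-values take the control to vary like a knockdown library, which 1 control cannot show. When the control was given an SD 2 times as large, 10 rose and 0 fell in limma's test (24 and 1 at an unadjusted p under 0.05), against a background of 8.33% and 7.03%. With 3 times the SD, 0 rose and 0 fell (15 and 0 unadjusted), against 1.21% and 0.792%.
Log2 ratios were lower for longer transcripts across all genes (Spearman -0.36 over 9614 genes of the same libraries) and across the members (-0.26 over 76), whose median length was 1733 bases against 3383. After a loess correction for length and GC content 24 members rose and 13 fell, against 27.4% and 25.8% of all genes, and the members' median became 0.091. Of the 34 rises 21 remained, as did all 5 falls. At an adjusted p of 0.01, 22 members rose and 0 fell, against 15.1% and 12.7% of all genes.

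**Figure D1:**
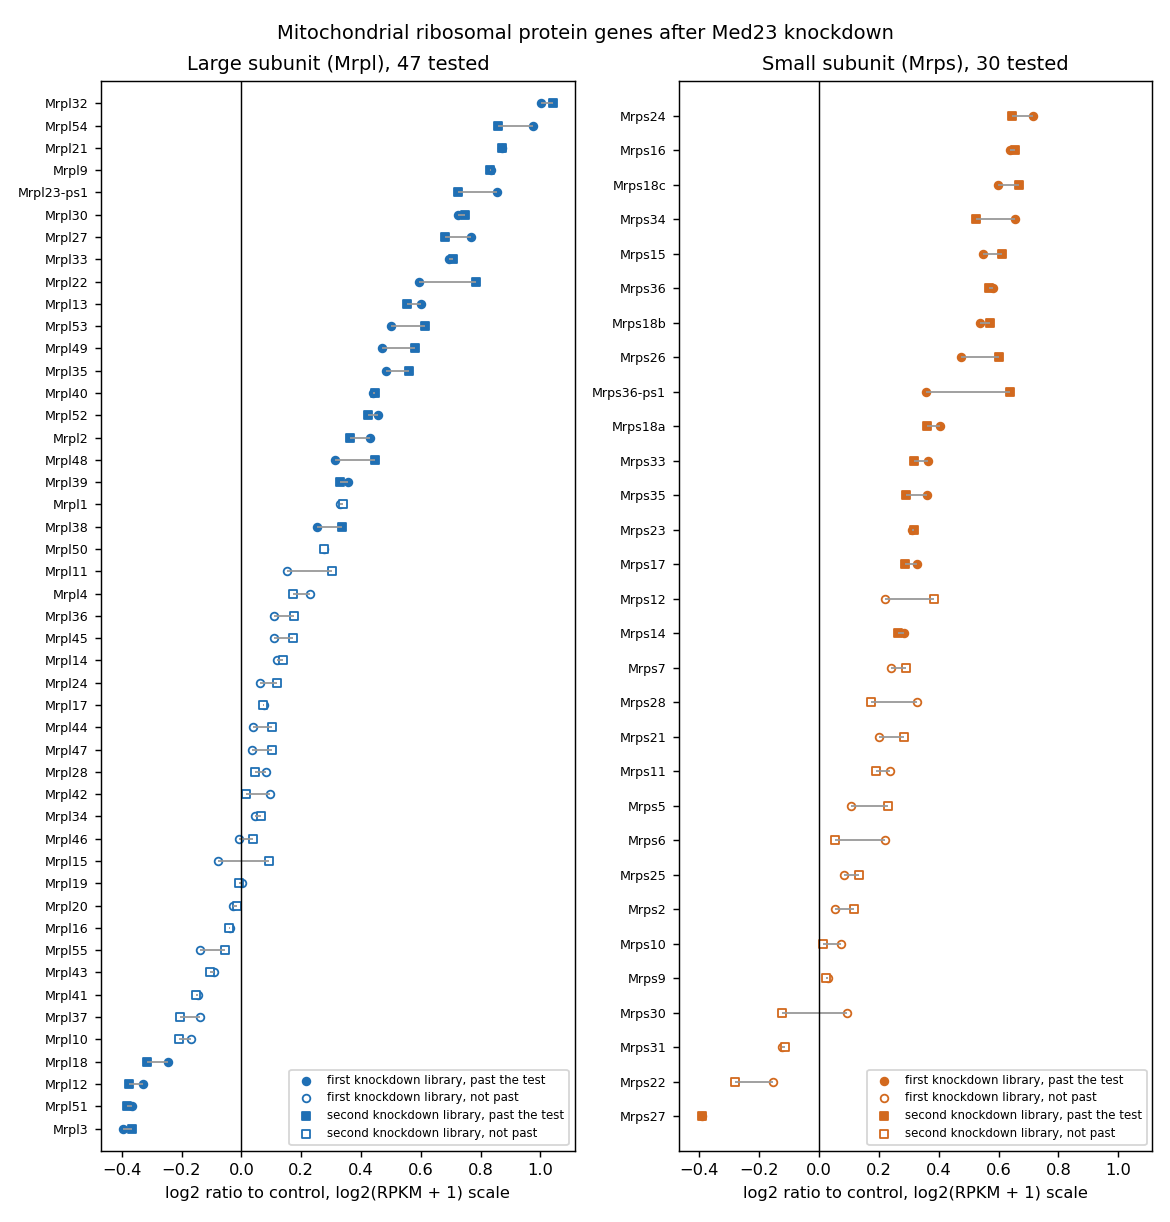
Log2 ratio to the control, on the log2(RPKM + 1) scale, of each tested gene in the first and second knockdown library (different symbols), with large and small subunit genes apart. Filled symbols passed limma's test. Of 77 genes, 34 passed above 0 and 5 below it, and 4 have the libraries on both sides of 0.

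Levels per unit of length differed among the genes by more than they changed. In the control they ran from 0.238 RPKM (Mrpl23) to 61.2 RPKM (Mrpl53), with a median of 15.3 RPKM for the large and 9.12 RPKM for the small subunit. Above 20 RPKM stood 19 genes, 46 lay between 5 and 20 RPKM, and 13 lay below 5 RPKM. Mrpl53, a protein found only in mitochondrial ribosomes, was at 61.2 RPKM in the control library and at 87.0 and 94.1 RPKM in the knockdown libraries. Mrpl52, of the same class, was 47.1, 64.9 and 63.5 RPKM in the same order, and Mrpl12, of the ribosomal stalk, was 46.0, 36.4 and 35.2 RPKM. Of these most abundant large subunit messages the first and second rose and the third fell, and in each the control lay outside the knockdown values. After the length and GC correction described above, Mrpl53, Mrpl52 and Mrps23 no longer passed. In the small subunit Mrps16, which has a bacterial counterpart, was at 43.7 RPKM in the control library and at 68.5 and 69.3 RPKM in the knockdown libraries, with log2 ratio 0.65 ± 0.06 (SE; adjusted p = 0.00154 by limma). Mrps23, found only in mitochondria, was at 24.4 RPKM in the control library and at 30.5 and 30.6 RPKM in the knockdown libraries, with log2 ratio 0.31 ± 0.08 (SE; adjusted p = 0.02003 by limma). Mrps30, named for the small subunit but placed in the large one, was at 23.1 RPKM in the control library and at 24.7 and 21.1 RPKM in the knockdown libraries. Mrps16 and Mrps23 were higher in both knockdown libraries, while the control value of Mrps30 lay between them. Mrpl15 (8.53, 8.02 and 9.15 RPKM) and Mrpl46 (6.88, 6.83 and 7.09 RPKM) also had the control in the middle, as did Mrpl19.

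**Figure D2:**
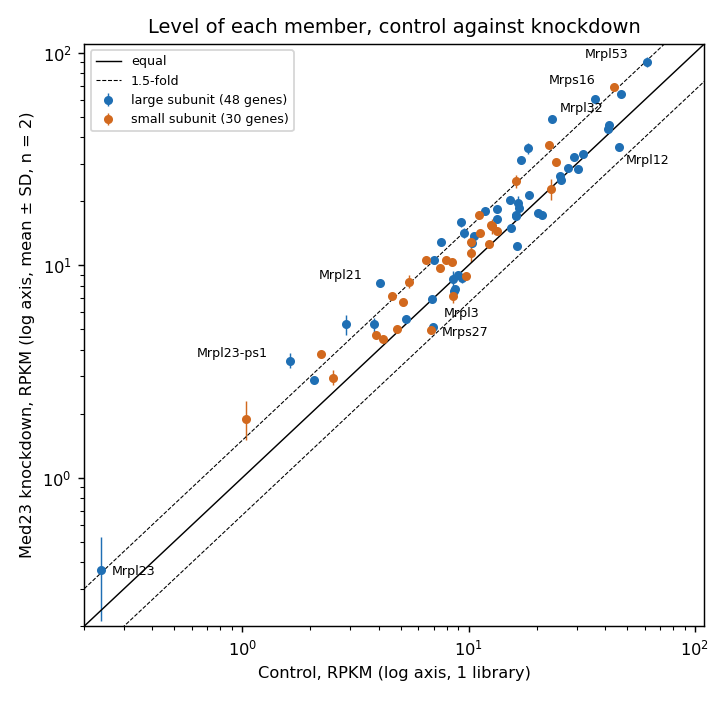
RPKM of all 78 genes in the control (x axis) and after knockdown (y axis, mean with SD bars, n = 2), both on log axes, with large and small subunit genes in different colours. The solid line marks equal levels and dashed lines 1.5-fold. Mrpl32 and Mrpl21 lie above the upper dashed line, and no gene lies below the lower one.

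The large subunit held the largest rises and 4 of the 5 falls. Rises were called for 19 of its 47 tested genes and falls for 4, while 24 did not pass, with a median log2 ratio of 0.14, beside 26.3% rises and 24.0% falls among all genes. With length and GC corrected for, 14 rose and 12 fell, shares near the 27.4% and 25.8% among all genes. Mrpl32, a zinc-binding protein that the mitochondrial m-AAA protease cuts before it joins the ribosome, was at 23.5 RPKM in the control library and at 48.0 and 49.4 RPKM in the knockdown libraries, with log2 ratio 1.02 ± 0.07 (SE; adjusted p = 0.000629 by limma). Both knockdown values were over 2-fold above the control. As deposited its log2 ratio was the largest of the 77, and it was 1.01 after the length and GC correction. When the control was given an SD 3 times as large its adjusted p was 0.0662, the lowest of any member in that fit.

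Mrpl54, found only in mitochondria, was at 18.3 RPKM in the control library and at 36.9 and 34.0 RPKM in the knockdown libraries, with log2 ratio 0.92 ± 0.09 (SE; adjusted p = 0.00141 by limma). Its log2 ratio became 0.50 after the length and GC correction. Mrpl21, a conserved protein, was at 4.08 RPKM in the control library and at 8.28 and 8.28 RPKM in the knockdown libraries, with log2 ratio 0.87 ± 0.10 (SE; adjusted p = 0.00237 by limma). Mrpl9, whose bacterial counterpart reaches out from the base of the L1 stalk, was at 17.1 RPKM in the control library and at 31.3 and 31.2 RPKM in the knockdown libraries, with log2 ratio 0.83 ± 0.08 (SE; adjusted p = 0.00131 by limma). In all 3 the knockdown libraries lay close to each other and far above the control.
Mrpl30 went from 36.0 RPKM to 60.2 and 61.2 RPKM, Mrpl33 from 7.52 RPKM to 12.8 and 12.9 RPKM, and Mrpl27, whose bacterial counterpart reaches the site where peptide bonds form, from 9.23 RPKM to 16.4 and 15.4 RPKM. The log2 ratios of these genes were 0.74, 0.70 and 0.72, all past limma's test. Both knockdown values lay above the lone control, as in 46.6% of all tested genes. The pseudogene Mrpl23-ps1 was at 1.63 RPKM in the control library and at 3.76 and 3.35 RPKM in the knockdown libraries, with log2 ratio 0.79 ± 0.12 (SE; adjusted p = 0.00506 by limma). Mrpl23 itself, the only gene under the filter, was 0.238, 0.477 and 0.257 RPKM. The symbol marks the pseudogene as a copy of Mrpl23, so how reads were split between them is uncertain. The other large subunit genes that rose were Mrpl2, Mrpl13, Mrpl22, Mrpl35, Mrpl38, Mrpl39, Mrpl40, Mrpl48, Mrpl49, Mrpl52 and Mrpl53.

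As deposited, 5 members fell, each by less than 1.5-fold, and after the length and GC correction 13 did, against 24.0% and 25.8% of all genes. Mrpl3, a conserved protein that reaches towards the catalytic site, was at 6.95 RPKM in the control library and at 5.03 and 5.16 RPKM in the knockdown libraries, with log2 ratio -0.38 ± 0.10 (SE; adjusted p = 0.0301 by limma). Mrpl51, found only in mitochondria, was at 16.3 RPKM in the control library and at 12.4 and 12.3 RPKM in the knockdown libraries, with log2 ratio -0.37 ± 0.09 (SE; adjusted p = 0.0194 by limma). Mrpl18, of the central protuberance at the top of the subunit, was at 21.2 RPKM in the control library and at 17.7 and 16.9 RPKM in the knockdown libraries, with log2 ratio -0.28 ± 0.09 (SE; adjusted p = 0.0440 by limma). The corrected log2 ratios of these genes were -0.30, -0.35 and -0.54. In each both knockdown values lay below the control, by more than they differed from each other. Without the filter on low values Mrpl3 and Mrpl18 did not pass, leaving 3 falls and 28 rises among the members, against 18.9% and 19.5% of the 12852 genes. Mrps27, a pentatricopeptide repeat protein, was the one small subunit gene that fell and was at 6.79 RPKM in the control library and at 4.94 and 4.94 RPKM in the knockdown libraries, with log2 ratio -0.39 ± 0.10 (SE; adjusted p = 0.0277 by limma), and -0.56 after the correction. Mrps22 (8.49, 7.53 and 6.81 RPKM, limma adjusted p = 0.151) and Mrpl41 (8.68, 7.77 and 7.71 RPKM, limma adjusted p = 0.254) were below the control in both knockdown libraries and did not pass. Once corrected for length and GC content, Mrpl41 passed, at a log2 ratio of -0.50 (adjusted p = 0.00319 by limma).

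Mrpl10, Mrpl11 and Mrpl12 form the stalk, the flexible arm that draws translation factors to the ribosome. Mrpl12, present there in several copies, was at 46.0 RPKM in the control library and at 36.4 and 35.2 RPKM in the knockdown libraries, with log2 ratio -0.35 ± 0.07 (SE; adjusted p = 0.0124 by limma), and -0.61 after the length and GC correction. Mrpl10, its anchor, was at 20.2 RPKM in the control library and at 17.9 and 17.3 RPKM in the knockdown libraries (adjusted p = 0.117 by limma). Mrpl11, at the stalk base, was at 16.5 RPKM in the control library and at 18.5 and 20.7 RPKM in the knockdown libraries (adjusted p = 0.109 by limma). Mrpl12 and Mrpl10 were thus lower and Mrpl11 higher in both knockdown libraries, and of the 3 only Mrpl12 passed. Summed, the 3 came to 82.7 RPKM in the control library and to 72.8 and 73.2 RPKM after knockdown. After the length and GC correction Mrpl10 passed as well, at a log2 ratio of -0.38.

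Other regions of the large subunit are given by counts, to be read against the 26.3% rises and 24.0% falls among all genes. After the length and GC correction those shares were 27.4% and 25.8%. Of 6 genes of the central protuberance, 4 rose (Mrpl27, Mrpl38, Mrpl40 and Mrpl48), Mrpl18 fell and Mrpl46 did not pass, with a median log2 ratio of 0.34, while 2 rose and 1 fell after the length and GC correction (median 0.11). Of the 7 tested genes around the tunnel exit, Mrpl22 and Mrpl39 rose and 5 did not pass, with a median of 0.09. Among those was Mrpl45, which holds the ribosome at the inner membrane and was at 29.1 RPKM in the control library and at 31.5 and 33.0 RPKM in the knockdown libraries. After the length and GC correction 1 tunnel exit gene rose and 0 fell (median 0.084). Mrpl22 and Mrpl39 then no longer passed, while Mrpl17 did, at a log2 ratio of 0.40. Among 29 tested large subunit genes with bacterial counterparts 10 rose and 3 fell (median log2 ratio 0.13), and among 19 specific to mitochondria, Mrps30 and Mrps18a included, 9 rose and 1 fell (median 0.27). With length and GC corrected for, the conserved genes gave 10 rises and 9 falls (median 0.084) and the specific ones 3 and 3 (median 0.079).

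Rises were called for 15 of the 30 small subunit genes and a fall for 1, while 14 did not pass, with a median log2 ratio of 0.29. Among all genes 26.3% rose and 24.0% fell. Once corrected for length and GC content, 10 rose and 1 fell, against 27.4% and 25.8% of all genes. Mrps24, a conserved protein near the entry of the messenger RNA, was at 22.7 RPKM in the control library and at 37.9 and 36.0 RPKM in the knockdown libraries, with log2 ratio 0.68 ± 0.08 (SE; adjusted p = 0.00231 by limma). Both knockdown values lay above the control, and as deposited its log2 ratio was the largest of the small subunit. After the length and GC correction it was 0.37, below those of Mrps26 (0.62), Mrps16 (0.56), Mrps17 (0.49), Mrps35 (0.48) and Mrps34 (0.39). In the annotation an exon of it shares 226 bases with Urgcp on the same strand, and Urgcp was at 4.89 RPKM in the control library and at 2.60 and 2.82 RPKM in the knockdown libraries. The others that rose were Mrps14, Mrps15, Mrps16, Mrps17, Mrps18a, Mrps18b, Mrps18c, Mrps23, Mrps26, Mrps33, Mrps34, Mrps35, Mrps36 and the pseudogene Mrps36-ps1. Mrps36 has since been assigned to the oxoglutarate dehydrogenase complex. Mrps12, which lies at the decoding centre, was at 10.2 RPKM in the control library and at 12.1 and 13.7 RPKM in the knockdown libraries and did not pass (limma adjusted p = 0.0672). Of 16 small subunit genes with bacterial counterparts 6 rose and 0 fell (median 0.26). As deposited, both knockdown values lay above the control in all 16, against 46.6% of all tested genes. Of 10 specific to mitochondria 6 rose and 1 fell (median 0.32). With length and GC corrected for, the conserved genes gave 6 rises and 0 falls (median 0.11) and the specific ones 4 and 1 (median 0.17). The corrected log2 ratios of the conserved Mrps2, Mrps6, Mrps9, Mrps11, Mrps12, Mrps21 and Mrps28 were negative, from -0.01 (Mrps2) to -0.19 (Mrps21). Those of the other conserved genes stayed positive.

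Mrps18 exists as 3 paralogs, of which Mrps18a sits in the large subunit and the other two in the small subunit. Mrps18a was at 7.90 RPKM in the control library and at 10.8 and 10.4 RPKM in the knockdown libraries, with log2 ratio 0.38 ± 0.10 (SE; adjusted p = 0.0232 by limma). Mrps18b was at 4.57 RPKM in the control library and at 7.08 and 7.27 RPKM in the knockdown libraries, with log2 ratio 0.55 ± 0.10 (SE; adjusted p = 0.00921 by limma). Mrps18c was at 6.49 RPKM in the control library and at 10.3 and 10.9 RPKM in the knockdown libraries, with log2 ratio 0.63 ± 0.10 (SE; adjusted p = 0.00546 by limma). All 3 rose, with both knockdown values above the lone control, as in 46.6% of all tested genes. Once corrected for length and GC content, Mrps18c passed and the other two did not.

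The large and small subunit are set side by side without a test, since genes are not replicates and there was 1 control. Large subunit levels summed to 845 RPKM in the control library and to 1020 and 1029 RPKM after knockdown, ratios of 1.21 and 1.22. Those of the small subunit were 326 RPKM and then 423 and 417 RPKM, ratios of 1.30 and 1.28. The small subunit's sum was 0.385 of the large subunit's in the control and 0.415 and 0.405 after knockdown. The median log2 ratio of the small subunit exceeded that of the large by 0.15, and by 0.025 after the length and GC correction. Placing genes by where the protein sits moves Mrps30 and Mrps18a to the large subunit and leaves out Mrps36 and its pseudogene. Then 20 of 49 large and 12 of 26 small subunit genes rose, and 4 and 1 fell, beside 26.3% and 24.0% of all genes.

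Cytosolic ribosomal protein genes, found by their symbols, gave 83 rises and 0 falls among 84 tested, with a median log2 ratio of 0.70. Their summed level was 1.54 and 1.496 times the control's in the knockdown libraries, beside 1.23 and 1.24 times for the mitochondrial set. Reads of many of these genes may be shared with near-identical pseudogenes, which makes the levels uncertain. Subunits of respiratory complex I, some of which mitochondrial ribosomes make, gave 13 rises and 6 falls among 38 nuclear-encoded genes (median 0.12), beside 26.3% rises and 24.0% falls among all genes. After the length and GC correction complex I gave 4 rises and 16 falls (median -0.18), so its balance turned, and the cytosolic ribosome 72 and 2 (median 0.41). Among all genes 27.4% rose and 25.8% fell after it. The differences between these sets were not tested.

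**Figure D3:**
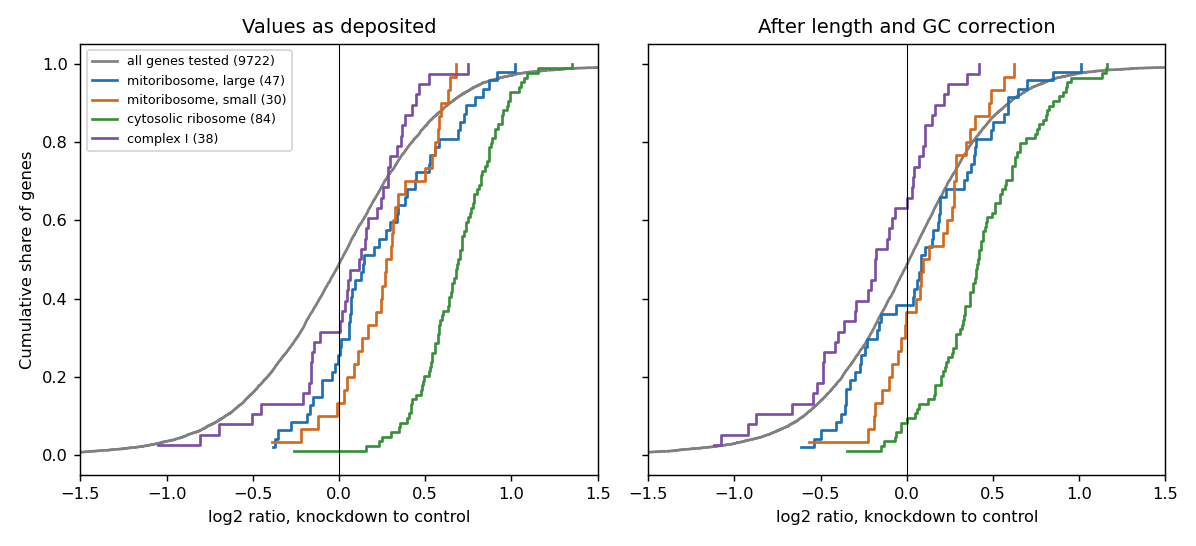
Cumulative share of genes (y axis) by log2 ratio of knockdown to control (x axis) for all tested genes, both subunits of the mitochondrial ribosome, the cytosolic ribosome and complex I, as deposited and after correction for transcript length and GC content. The medians as deposited were 0.14 for the large and 0.29 for the small mitochondrial subunit and 0.70 for the cytosolic set, and after correction 0.084, 0.11 and 0.41.

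Of 7 proteins of the mitochondrial ribosome with other names 5 rose and 0 fell, with a median log2 ratio of 0.33, beside 26.3% and 24.0% among all genes. After the length and GC correction 3 rose and 0 fell (median 0.083), against 27.4% and 25.8% of all genes. Ict1, which frees stalled chains from the ribosome, was at 7.17 RPKM in the control library and at 10.5 and 11.3 RPKM in the knockdown libraries, with log2 ratio 0.54 ± 0.10 (SE; adjusted p = 0.00938 by limma). Mrp63, of the large subunit, was 4.96, 7.36 and 7.18 RPKM, and Aurkaip1, of the small subunit, was 19.0, 25.2 and 24.6 RPKM. All 3 had both knockdown values above the control and passed limma's test, as did Dap3 and Chchd1. The corrected log2 ratios of Aurkaip1 and Chchd1 were 0.08 and -0.11.

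Factors that act on the mitochondrial ribosome and its messages gave 2 rises and 3 falls among 14 tested, with a median log2 ratio of -0.06. Both shares were below the 26.3% and 24.0% among all genes. After the length and GC correction 3 rose and 5 fell (median -0.030), against 27.4% and 25.8% of all genes. Taco1, an activator of translation of a cytochrome oxidase message, was at 5.25 RPKM in the control library and at 1.10 and 1.65 RPKM in the knockdown libraries, with log2 ratio -1.41 ± 0.17 (SE; adjusted p = 0.00254 by limma). Lrpprc, which stabilises mitochondrial messages, was at 10.4 RPKM in the control library and at 4.70 and 4.46 RPKM in the knockdown libraries, with log2 ratio -1.04 ± 0.11 (SE; adjusted p = 0.00166 by limma). Oxa1l, the insertase at the tunnel exit, was at 12.9 RPKM in the control library and at 23.7 and 23.6 RPKM in the knockdown libraries, with log2 ratio 0.83 ± 0.08 (SE; adjusted p = 0.00157 by limma). Taco1 and Lrpprc were far below the control in both knockdown libraries, and Oxa1l well above it. Mrrf, the ribosome recycling factor, also rose and Gfm1, an elongation factor, fell, while Tufm, Tsfm, Gfm2, Mtif2 and Mtif3 did not pass.

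Assembly factors gave 4 rises and 0 falls among 16 tested (median log2 ratio 0.16). Their share of rises, 25%, was near the 26.3% among all genes, of which 24.0% fell. After the length and GC correction 4 rose and 1 fell (median 0.12), against 27.4% and 25.8% of all genes. Ngrn, needed for the large subunit's RNA, was at 12.7 RPKM in the control library and at 28.3 and 28.1 RPKM in the knockdown libraries, with log2 ratio 1.10 ± 0.08 (SE; adjusted p = 0.000685 by limma). Rpusd4, a pseudouridine synthase of the same RNA, was 3.37, 6.53 and 6.59 RPKM. Rnmtl1, a methyltransferase of that RNA, was 0.745, 1.59 and 1.72 RPKM and passed the filter through the knockdown libraries alone. All 3 were higher in both knockdown libraries, but the filter chose Rnmtl1 by the side where it is high.
For mitochondrial DNA expression 4 rose and 1 fell among 14 (median 0.09), and the 28.6% rises were near the 26.3% among all genes. Once corrected for length and GC content, 4 rose and 1 fell (median 0.11), against 27.4% and 25.8% of all genes. Polg2, an accessory subunit of the DNA polymerase, was 0.942, 2.02 and 2.36 RPKM and likewise passed the filter through the knockdown libraries. Mtpap, the poly(A) polymerase, was 8.83, 14.8 and 13.7 RPKM, and Peo1, the replicative helicase and the only fall of this list, was 1.73, 0.894 and 0.851 RPKM. Peo1 passed the filter through the control alone, so nothing is read from the calls of Polg2 and Peo1. Mtpap rose, with both knockdown values above the lone control, as in 46.6% of all tested genes.

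Among 10 tested regulators of nuclear genes for mitochondria, 1 rose and 2 fell, beside 26.3% and 24.0% among all genes (median log2 ratio -0.02). With length and GC corrected for, 1 rose and 1 fell (median 0.17), and the log2 ratio of Yy1 went from -0.30 to -0.12. Myc, a growth regulator, was at 8.90 RPKM in the control library and at 19.97 and 22.9 RPKM in the knockdown libraries, with log2 ratio 1.18 ± 0.11 (SE; adjusted p = 0.00136 by limma). Ppargc1a, a coactivator of mitochondrial biogenesis, was 6.61, 4.17 and 3.29 RPKM, and Yy1 was 42.0, 33.0 and 34.7 RPKM. Myc was higher, and Ppargc1a and Yy1 were lower, in both knockdown libraries. Nrf1 was at 2.08 RPKM in the control library and at 2.22 and 1.93 RPKM in the knockdown libraries, and Gabpa was 6.70, 8.48 and 5.73 RPKM, so for both factors, whose words were searched in the promoters, the control lay between the knockdown values. When the control was given an SD 3 times as large, 0 genes of these 5 lists passed limma's test in either direction, the lowest adjusted p being that of Ngrn at 0.0706.

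**Figure D4:**
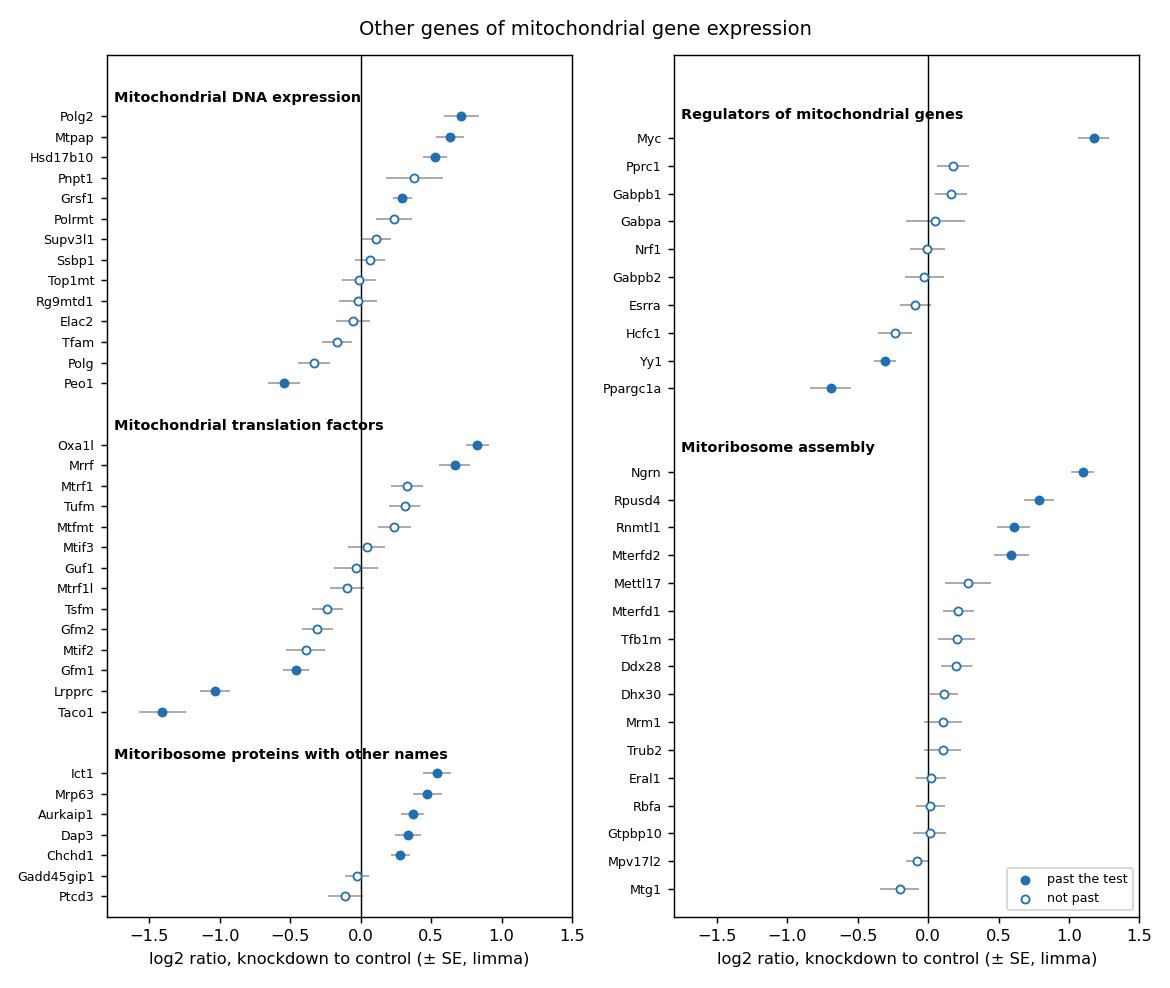
Log2 ratio of knockdown to control (x axis) for each tested gene of 5 other lists of mitochondrial gene expression, with bars for the SE from limma. Filled points passed limma's test. Taco1 at -1.41 lies furthest to the left, and Myc at 1.18 and Ngrn at 1.10 furthest to the right.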

How the data were processed

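The authors deposited 1 table of RPKM values for 12852 genes in 3 libraries, made from total RNA per the labels' protocols. TopHat, Cufflinks, CASAVA 1.4 and build mm9 (mouse) are listed in the submitters' processing notes. For the annotation, strand setting and normalization, nothing is given in the sources used here. After sorting, the deposited columns were equal in 95.3% of positions (relative difference under 1e-09), as quantile normalization leaves them. The header joined both knockdown names in 1 field, so these columns were assigned to their group and are called first and second by place.

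Values were analysed as log2(RPKM + 1), which understates changes of low genes, with limma 3.58.1 in R 4.3.3 (eBayes with an intensity trend) over the 9722 genes whose mean reached 1 RPKM. In simulated libraries 9522 of 9722 genes were left unchanged. Where the simulated control varied like a knockdown library, this fit called 3 of the unchanged genes. Where the simulated control had an SD 3 times as large, the same fit called 2748 of them. In the real libraries 26.3% of genes rose and 24.0% fell, and so many calls loosen the Benjamini-Hochberg cutoff. The simulated counts therefore do not give the number of unchanged genes called in these data. The fit had 1 residual and 4.37 prior degrees of freedom. Length and GC content were those of the longest GENCODE M21 transcript, matched for 77 of 78 members (Mrpl33 was left uncorrected). GENCODE and RefSeq coordinates are of GRCm38, not of the build mm9. The members, lists and tests were chosen with earlier results of these data known. Values are given for the 8 largest rises and falls by the smaller change of the 2 libraries, the 3 most abundant genes of each subunit, the stalk, the Mrps18 paralogs, 3 genes with the control between the libraries, the gene under the filter and up to 3 genes of each other list. Mrpl45, Mrps12, Cd68, Lyz2, Col1a1, Chchd1, Nrf1, Gabpa and Urgcp were added after their values were seen. Python 3.11.15, pandas 2.3.3, numpy 2.4.6 and matplotlib 3.10.9 were used.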

Additional observations from a re-analysis of the deposited data

How the results depend on the processing

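No paired analysis was possible because there was 1 control library for 2 knockdown libraries. Rises and falls among the 77 tested genes (34 and 5) became 10 and 0 with a control SD of 2 times, 0 and 0 with 3 times, 22 and 0 at an adjusted p of 0.01, 24 and 13 after the length and GC correction, and 28 and 3 without a filter. For the large subunit (19 and 4) these settings gave 8 and 0, 0 and 0, 15 and 0, 14 and 12, and 17 and 2. For the small subunit (15 and 1) they gave 2 and 0, 0 and 0, 7 and 0, 10 and 1, and 11 and 1. Rises of 25% in both libraries were seen for 32 genes (19 large, 13 small) and of 2-fold for 3 (3 large, 0 small), beside 17 (10 and 7) at 1.5-fold. Falls by the inverse of that ratio were seen for 4 genes (3 large, 1 small) and of 1.5-fold for 0. After the length and GC correction the median log2 ratio was 0.091 over all, 0.084 for the large and 0.11 for the small subunit, and the gap between subunits 0.025. The small subunit's median of 0.29 was 0.31 with a pseudocount of 0.1 and with a minimum of 5 RPKM, and 0.27 by structure and without the 2 pseudogenes, a setting chosen after seeing the data. Leaving out either knockdown library gave medians of 0.24 to 0.27 over all, 0.12 to 0.17 for the large and 0.29 to 0.30 for the small subunit. The cause of these shifts was not tested. Rescaling, a second quantile normalization and dropping the intensity trend moved no count by over 1.5 times. With 1 control and unknown depth, the spread of the control cannot be measured.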

Other observations

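Mrpl46 and Mrps11, 1 gene of each subunit, are transcribed away from each other, with 41 bases between their RefSeq starts (chr7:78783090-78783130, GRCm38.p6). That stretch is shown, on the strand of Mrps11, because it is all the sequence between the starts, and it held none of the 5 words searched.
Mrpl46-Mrps11: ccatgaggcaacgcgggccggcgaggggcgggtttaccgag
Mrpl46 was at 6.88 RPKM in the control library and at 6.83 and 7.09 RPKM in the knockdown libraries, and Mrps11 was 3.90, 4.78 and 4.59 RPKM. Neither passed limma's test (adjusted p = 0.918 and 0.151). In GENCODE M21 exons of the pair overlap by up to 173 bases on opposite strands.

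Exons of 29 members overlap those of another gene in GENCODE M21, 27 of them on the opposite strand and 4 on the same strand, some on both. Those on the same strand are Mrpl53 (418 bases), Mrps34 (289 bases), Mrps24 (226 bases) and Mrps6 (up to 165 bases). Without a known strand setting reads of opposite-strand partners cannot be told apart, and no strand setting would separate reads in same-strand overlaps. Of these 29 members 11 rose and 4 fell, beside 34 rises and 5 falls among the 77 tested, and 26.3% and 24.0% among all genes. Partners that also serve mitochondria were named after their values were seen. Mrpl43 was at 30.3 RPKM in the control library and at 28.4 and 28.1 RPKM in the knockdown libraries, and its partner Peo1 was 1.73, 0.894 and 0.851 RPKM. Mrpl36 was at 16.7 RPKM in the control library and at 18.1 and 18.9 RPKM in the knockdown libraries (adjusted p = 0.221 by limma), and its partner Ndufs6, a complex I subunit, was 33.2, 43.5 and 43.7 RPKM (limma adjusted p = 0.00882). Mrpl47 was 5.27, 5.43 and 5.73 RPKM (limma adjusted p = 0.619), and its partner Ndufb5, also of complex I, was 56.7, 62.9 and 64.8 RPKM (limma adjusted p = 0.0787).

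The ETS word CCGGAAG lay in 14 of the 27 promoters of members that rose, in 4 of the 5 of members that fell and in 6 of the 34 of those that did not pass. The Nrf1 word gave 5, 1 and 6 of the same promoters, and the Yy1 word 5, 1 and 6. Over the 8952 table genes with a promoter the ETS, Nrf1 and Yy1 words had shares of 19.7%, 11.4% and 5.06%. Those genes were not split by call, so the counts by call have no such share beside them. They were made with the calls known and were not tested, and nothing is read from them.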
